A study of Mus musculus with 12 samples.

Results

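The genes described here are the 7 CDK inhibitors and the 3 D cyclins, 10 of the 23472 genes in a table of read counts from mouse long-term haematopoietic stem cells (LT-HSCs). They were chosen by name, as the complete Cip/Kip family (Cdkn1a, Cdkn1b and Cdkn1c), the complete Ink4 family (Cdkn2a, Cdkn2b, Cdkn2c and Cdkn2d) and Ccnd1, Ccnd2 and Ccnd3. Of the 10, 8 passed the filter on low counts that left 13184 genes to test; Cdkn2a and Cdkn2b did not. Poly-A RNA had been sequenced from bone marrow LT-HSCs of C57BL/6 mice, in 6 libraries that the labels call Jak1 KO (cre-positive) and 6 called wt (cre-negative). Mice of both groups had been injected with poly(I:C), an RNA mimic of viral infection that raises interferon, in 4 doses given 4 to 6 weeks before the marrow was taken. The promoter that drives cre, the ages, and the number of animals behind a library are not stated in the labels, and cre itself is carried by the Jak1 KO group only. In each genotype replicates 1 to 3 carried sample names of a VD series and replicates 4 to 6 names of a ZL series; the meaning of these 2 name sets is not given, and both hold 3 libraries of each genotype. The VD names begin with MXplus for Jak1 KO libraries and with MXminus for wt libraries, prefixes that the labels do not explain.

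D cyclins bind the kinases CDK4 and CDK6 and lead the cell from G1 towards S phase by phosphorylating the retinoblastoma protein, which releases E2F transcription factors. Ink4 inhibitors bind CDK4 and CDK6 and keep D cyclins off them, whereas Cip/Kip inhibitors bind cyclin-CDK complexes, above all those of CDK2. Most adult LT-HSCs rest outside the cycle, and this rest is known to need Cip/Kip inhibitors, Cdkn1c in particular. JAK1 is a kinase that passes signals of interferons and of several cytokine receptors to STAT transcription factors, and D cyclins and CDK inhibitors are among the genes that cytokine signalling is known to regulate.

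Promoter sequences were available for 7 of the 10 genes, in 11 windows of 300 bases (250 before and 50 after a RefSeq gene start, GRCm38.p6). Ccnd1, Ccnd2 and Cdkn1c had no window and were not searched. Each was searched on both strands for a STAT motif of the GAS type (TTCNNNGAA) and for an interferon response motif (TTTC, then 2 bases of any kind, then TTTC). Neither was found in any of the 11 windows, while 8.3% and 3.44% of all 32851 windows in the table hold them. At these rates 11 windows are too few to read the absence as a trait of these genes. The same search found an E2F motif (TTTNGCGC, in 1.38% of all windows) 244 bases before the second Cdkn2a start, and an E-box (CACGTG, in 7.15%) 35 bases after the second Cdkn2c start. It also found a pair of CATG motifs with 6 bases of any kind between them (in 0.712%), of the form known from p53 sites, 48 bases before the first Cdkn1a start; this pattern was added after the Cdkn1a window had been read. The 4 windows below are shown because Cdkn1b and Cdkn2d differed most between the name sets, and because the Cdkn1a and Cdkn2a windows hold a motif; capitals mark the motif, and letters that match a motif are a description of the window only.
Cdkn1b promoter, chr6:134920151-134920450, plus strand: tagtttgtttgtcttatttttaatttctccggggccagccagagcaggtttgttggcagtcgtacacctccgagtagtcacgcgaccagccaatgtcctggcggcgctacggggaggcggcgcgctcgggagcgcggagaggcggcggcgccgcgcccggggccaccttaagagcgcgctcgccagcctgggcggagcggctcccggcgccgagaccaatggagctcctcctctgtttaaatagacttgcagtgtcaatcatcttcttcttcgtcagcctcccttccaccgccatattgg
Cdkn2d promoter, chr9:21291160-21291459, minus strand: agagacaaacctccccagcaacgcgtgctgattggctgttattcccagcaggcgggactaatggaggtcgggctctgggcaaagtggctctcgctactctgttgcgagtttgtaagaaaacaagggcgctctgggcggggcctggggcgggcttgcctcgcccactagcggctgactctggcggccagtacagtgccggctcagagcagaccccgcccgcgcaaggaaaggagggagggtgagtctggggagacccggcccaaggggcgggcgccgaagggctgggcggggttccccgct
Cdkn1a promoter, first start, chr17:29090729-29091028, plus strand: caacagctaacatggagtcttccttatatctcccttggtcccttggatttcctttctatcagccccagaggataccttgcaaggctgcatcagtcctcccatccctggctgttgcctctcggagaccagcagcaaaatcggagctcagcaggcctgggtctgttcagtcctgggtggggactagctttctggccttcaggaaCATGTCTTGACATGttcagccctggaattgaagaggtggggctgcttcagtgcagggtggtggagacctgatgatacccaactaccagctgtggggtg
Cdkn2a promoter, second start, chr4:89282143-89282442, minus strand: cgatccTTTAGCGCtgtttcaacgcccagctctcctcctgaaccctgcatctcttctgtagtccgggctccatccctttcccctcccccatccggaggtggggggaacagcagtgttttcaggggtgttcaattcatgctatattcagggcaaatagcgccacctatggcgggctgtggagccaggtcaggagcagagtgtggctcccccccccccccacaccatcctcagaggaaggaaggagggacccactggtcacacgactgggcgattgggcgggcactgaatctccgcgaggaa

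Library depth ranged from 8989965 to 28701855 counts. Reads of Rn45s, the ribosomal RNA precursor, made up 0.511% to 0.950% of ZL libraries and 14.8% to 22.6% of VD libraries. Genes with long exons ran lower in Jak1 KO 4 and higher in Jak1 KO 6 and wt 6 than in the other libraries (Spearman correlation of the deviation from the mean of the name set with exon length over 13072 genes -0.52, 0.45 and 0.38, against -0.27 to 0.22 elsewhere). Values without 1 or more of these libraries stand beside results that they move by much. All 10 LT-HSC markers passed the filter, with a summed level of 1605 to 4083 CPM (counts scaled to library size with TMM factors) in Jak1 KO libraries and 2109 to 4098 CPM in wt libraries. Markers of other lineages were present too, with up to 415 CPM for S100a9 of granulocytes, 255 CPM for Alas2 of erythroid cells, 186 CPM for Nkg7 of NK cells and 141 CPM for Cd79b of B cells in a library. The alpha globin gene Hba-a1 had no count in any library, and Cd3e, Cd3d, Cd3g and Cd8a of T cells had at most 0.699 CPM. The labels do not say whether libraries stem from separate animals, and p-values therefore measure a spread between libraries that may be partly technical. In bulk libraries, fewer cells that express a gene and less RNA per cell cannot be told apart.

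Jak1 itself had 375, 408, 392, 246, 386 and 727 CPM in Jak1 KO libraries 1 to 6, against 358, 341, 321, 435, 365 and 422 CPM in wt libraries 1 to 6. The ranges overlap, with Jak1 KO 6 highest and Jak1 KO 4 lowest of all 12. The log2 fold change was 0.18 (SE 0.20, adjusted p = 0.945 in edgeR), and -0.05 without Jak1 KO 6. A gene-wide count does not show which exons were read, so this level does not check the genotype labels. Group names below are those of the labels.

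The inhibitors differed far more from each other than between genotypes. Divided by exon length, so that genes can be compared, Cdkn2d, the Ink4d inhibitor, averaged 50.9 ± 40.4 CPM per kb in Jak1 KO libraries and 43.7 ± 18.1 CPM per kb in wt libraries (SD, n = 6 each). It was the highest inhibitor in all 12 libraries, with 38.7% to 70.8% of the summed inhibitor level per kb in Jak1 KO libraries and 43.9% to 81.8% in wt libraries. Cdkn1c, the Kip inhibitor linked to LT-HSC rest, came next by mean level over both name sets, with 21.1 ± 14.0 CPM per kb in Jak1 KO libraries and 13.9 ± 10.8 CPM per kb in wt libraries. Cdkn1b, the Kip inhibitor p27, lay above it in 6 libraries, the 3 VD wt libraries among them. The order of Cdkn1b and Cdkn2c (Ink4c) was opposite in the name sets: Cdkn1b was lower in all 6 ZL libraries (1.48 to 5.20 CPM per kb, with 3.37 to 12.9 for Cdkn2c) and higher in all 6 VD libraries (10.8 to 15.2 CPM per kb, with 6.26 to 8.99 for Cdkn2c). Cdkn2c averaged 8.78 ± 2.57 CPM per kb in Jak1 KO libraries and 6.84 ± 2.02 CPM per kb in wt libraries. Cdkn1b averaged 8.54 ± 5.90 CPM per kb in Jak1 KO libraries and 7.41 ± 5.64 CPM per kb in wt libraries. Cdkn1a, the p53 target p21, was well below them at 1.11 ± 0.765 CPM per kb in Jak1 KO libraries and 1.25 ± 0.434 CPM per kb in wt libraries.

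Cdkn2a (chr4:89274473-89294619, minus strand, GRCm38.p6) and Cdkn2b (chr4:89306289-89311032, minus strand), which neighbour each other, were at the limit of detection. Cdkn2a, whose single gene count covers the starts of both the Ink4a and the Arf transcript, had 0, 0, 0, 3, 1 and 1 counts in Jak1 KO libraries 1 to 6, against 0, 0, 0, 5, 1 and 0 counts in wt libraries 1 to 6. No VD library had a count, which allows up to 0.0956 CPM in the Jak1 KO group and 0.0855 CPM in the wt group (3 counts over the group, counting error only). Cdkn2b had 5, 0, 0, 4, 0 and 4 counts in Jak1 KO libraries, against 0, 8, 8, 7, 5 and 4 counts in wt libraries. Its sums were 13 counts of 98259126 in Jak1 KO libraries and 32 counts of 114888560 in wt libraries (95% Poisson intervals 6.92 to 22.2 and 21.9 to 45.2 counts). With no filter on low counts, over 21232 genes, Cdkn2b had a log2 fold change of -1.07 (SE 1.18, edgeR adjusted p = 0.905) and Cdkn2a one of 0.30 (SE 1.60, edgeR adjusted p = 0.985), so no difference was detectable at this depth.

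Among the D cyclins, Ccnd2 was highest and Ccnd1 lowest per kb in all 12 libraries. Ccnd2 averaged 72.8 ± 41.6 CPM per kb in Jak1 KO libraries and 56.8 ± 15.4 CPM per kb in wt libraries. Ccnd3 averaged 23.1 ± 5.98 CPM per kb in Jak1 KO libraries and 24.7 ± 2.68 CPM per kb in wt libraries. Ccnd1 averaged 10.6 ± 2.74 CPM per kb in Jak1 KO libraries and 12.6 ± 5.22 CPM per kb in wt libraries. Ccnd2 held more than all other D cyclin transcripts together in every library.

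**Figure D1:**
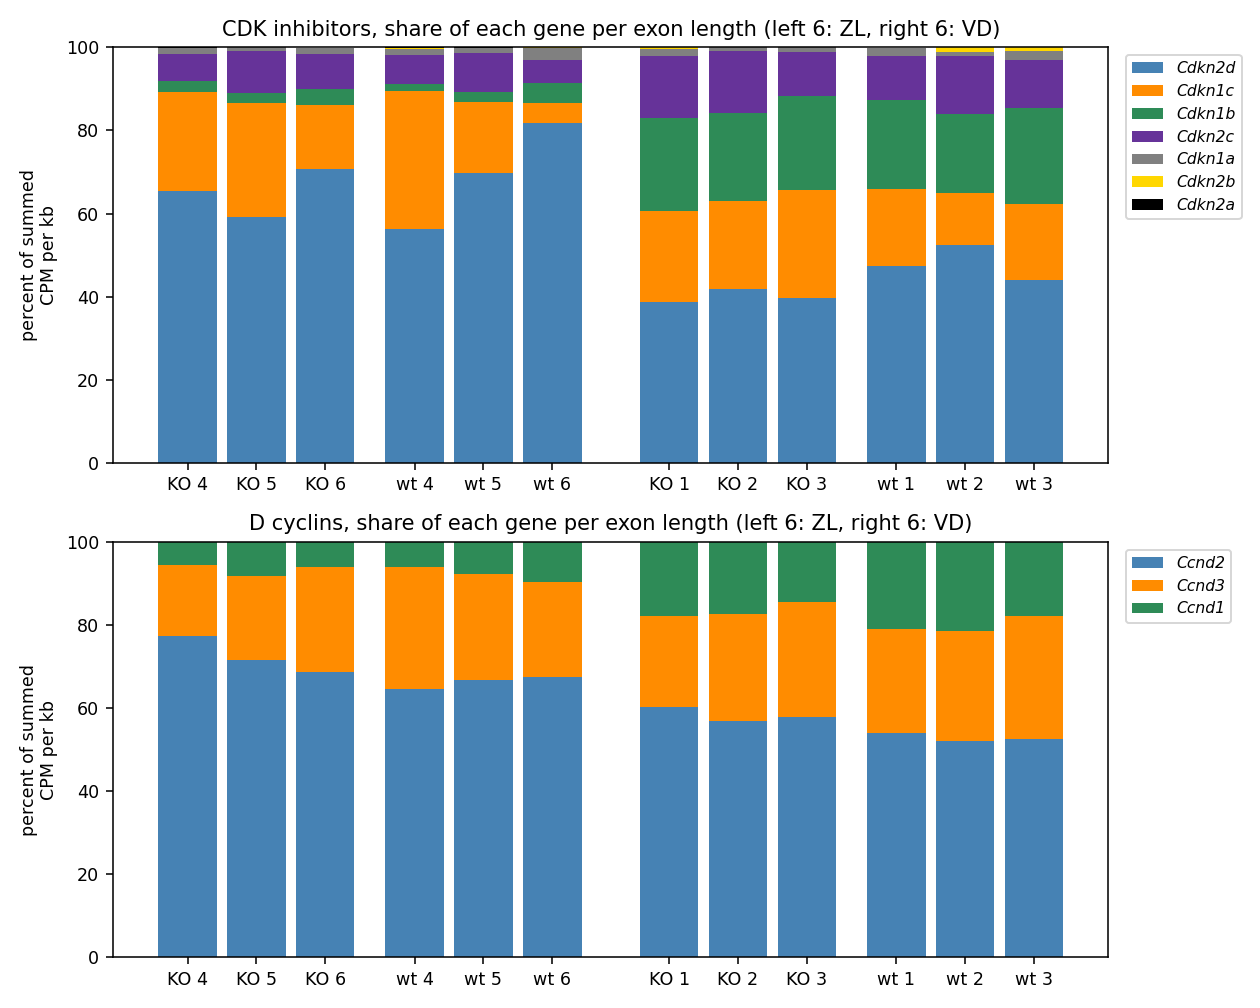
Stacked bars give each gene's percent of the summed CPM per kb of its class in each of the 12 libraries, inhibitors above and D cyclins below, with ZL libraries on the left and Jak1 KO left of wt. Cdkn2d takes the largest inhibitor share everywhere, Cdkn1b holds 1.47% to 4.93% in ZL libraries and 19.0% to 23.0% in VD libraries, and Ccnd2 takes the largest D cyclin share.

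The comparison of Jak1 KO with wt asks whether loss of JAK1 alters the transcripts that hold LT-HSCs out of the cycle or lead them into it. None of the 8 tested genes passed the threshold (edgeR, adjusted p under 0.05), against 58 of 13184 genes, 0.440%, over the whole table. None had an unadjusted p under 0.05 either, where 5.06% of all genes did, and DESeq2 and limma-voom called 0 of the 8 as well. Without Jak1 KO 4, Jak1 KO 6 and wt 6, edgeR again called 0 of the 8. The 8 log2 fold changes, 5 above 0 and 3 below, had a median of 0.18, against a median of -0.01 over all tested genes. Fold changes ranged between -0.22 for Cdkn1a and 0.60 for Cdkn1c.

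Cdkn1c had 27.3, 25.4, 36.1, 95.8, 54.2 and 19.9 CPM in Jak1 KO libraries 1 to 6, against 22.6, 14.6, 22.6, 68.5, 35.3 and 6.15 CPM in wt libraries 1 to 6. The groups overlap over the 12 libraries, the ZL libraries spread widely, and wt 6 was the lowest of all. The log2 fold change was 0.60 (SE 0.45, 95% interval -0.36 to 1.56, adjusted p = 0.945 in edgeR), so that differences up to a 2.94-fold higher level lie inside the interval. Without Jak1 KO 4 it was 0.36 (SE 0.47), and with each library left out in turn it was 0.36 to 0.96. With a term for replicate number in place of the name set it was 0.75 (SE 0.19, edgeR adjusted p = 0.193). Within VD libraries the Jak1 KO values all lay above the wt values, as in 6.57% of the 12903 genes tested there, with a log2 fold change of 0.61 (SE 0.20, edgeR adjusted p = 0.197). Within ZL libraries the log2 fold change was 0.59 with an SE of 0.84 (edgeR adjusted p = 0.946), and -0.04 without Jak1 KO 4. It was -0.04 to 1.46 there with each library left out in turn.

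Cdkn1b, the target of the SCF-Skp2 ubiquitin ligase at protein level, had 62.0, 56.7, 69.4, 23.7, 10.2 and 11.2 CPM in Jak1 KO libraries, against 58.0, 49.4, 62.9, 6.72, 11.3 and 14.1 CPM in wt libraries. The genotypes overlap in both name sets. Its log2 fold change was 0.31 (SE 0.23, 95% interval -0.19 to 0.81, adjusted p = 0.945 in edgeR), 0.12 (SE 0.17) without Jak1 KO 4 and 0.11 (SE 0.12) with limma-voom. With each library left out in turn it was 0.12 to 0.40 in edgeR.

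Cdkn1a had 3.52, 1.71, 2.81, 9.36, 3.33 and 3.03 CPM in Jak1 KO libraries, against 4.21, 2.02, 4.55, 5.55, 3.82 and 6.52 CPM in wt libraries. Jak1 KO 4 stood above all others, and the remaining values overlap. Its log2 fold change was -0.22 (SE 0.35, 95% interval -0.97 to 0.53, adjusted p = 0.947 in edgeR), on 14 to 62 counts per VD library and 76 to 176 counts per ZL library. Without Jak1 KO 4 it was -0.53 (SE 0.30, edgeR adjusted p = 0.982), and with each library left out in turn it was -0.53 to -0.10.

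Among the Ink4 inhibitors, Cdkn2c had 24.1, 23.4, 19.2, 34.6, 26.1 and 14.1 CPM in Jak1 KO libraries, against 16.8, 21.3, 18.7, 19.0, 25.3 and 9.04 CPM in wt libraries. The groups overlap, and the lowest value of each genotype was in replicate 6. The log2 fold change was 0.36 (SE 0.26, 95% interval -0.19 to 0.91, adjusted p = 0.945 in edgeR). Cdkn2d had 37.0, 38.6, 42.3, 203, 90.1 and 70.4 CPM in Jak1 KO libraries, against 44.3, 47.2, 41.4, 89.1, 110.1 and 80.7 CPM in wt libraries. Jak1 KO 4 again stood apart, and the sign of the difference rests on it. With all libraries the Cdkn2d log2 fold change was 0.10 (SE 0.23, 95% interval -0.39 to 0.60, adjusted p = 0.956 in edgeR), and without Jak1 KO 4 it was -0.16 (SE 0.13, edgeR adjusted p = 0.999).

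Ccnd2, a D cyclin that STAT5 signalling is known to induce in blood cells, had 463, 352, 382, 1373, 880.1 and 656 CPM in Jak1 KO libraries, against 462, 404, 382, 545, 718 and 695 CPM in wt libraries. The groups overlap in both name sets, and Jak1 KO 4 was the highest library. The log2 fold change was 0.26 (SE 0.19, 95% interval -0.15 to 0.67, adjusted p = 0.945 in edgeR), -0.02 (SE 0.10) within VD libraries and 0.57 (SE 0.30) within ZL libraries. Without Jak1 KO 4 it was 0.11 (SE 0.13) over the remaining 11 libraries and 0.25 (SE 0.18) within ZL libraries. With each library left out in turn these values were 0.11 to 0.33 and 0.25 to 0.79.

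Ccnd3 had 156, 150.0, 171, 283, 233 and 225 CPM in Jak1 KO libraries, against 202, 192, 200.0, 232, 254 and 218 CPM in wt libraries. All 3 VD Jak1 KO values lay below the VD wt values, as in 13.4% of genes, while the ZL groups overlap. The log2 fold change was -0.12 over all libraries (SE 0.13, 95% interval -0.39 to 0.15, adjusted p = 0.945 in edgeR). It was -0.28 (SE 0.08, edgeR adjusted p = 0.126) within VD libraries and 0.06 (SE 0.23, edgeR adjusted p = 0.966) within ZL libraries.

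Ccnd1 had 69.2, 53.6, 47.8, 48.8, 49.9 and 28.9 CPM in Jak1 KO libraries, against 89.7, 83.3, 64.6, 25.8, 42.3 and 50.5 CPM in wt libraries. In VD libraries Jak1 KO 1 lay above wt 3, so that the groups overlap, and in ZL libraries they overlap as well. The log2 fold change was -0.19 over all libraries (SE 0.22, 95% interval -0.65 to 0.28, adjusted p = 0.945 in edgeR), -0.44 (SE 0.15, edgeR adjusted p = 0.206) within VD libraries and 0.12 (SE 0.36, edgeR adjusted p = 0.961) within ZL libraries.

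**Figure D2:**
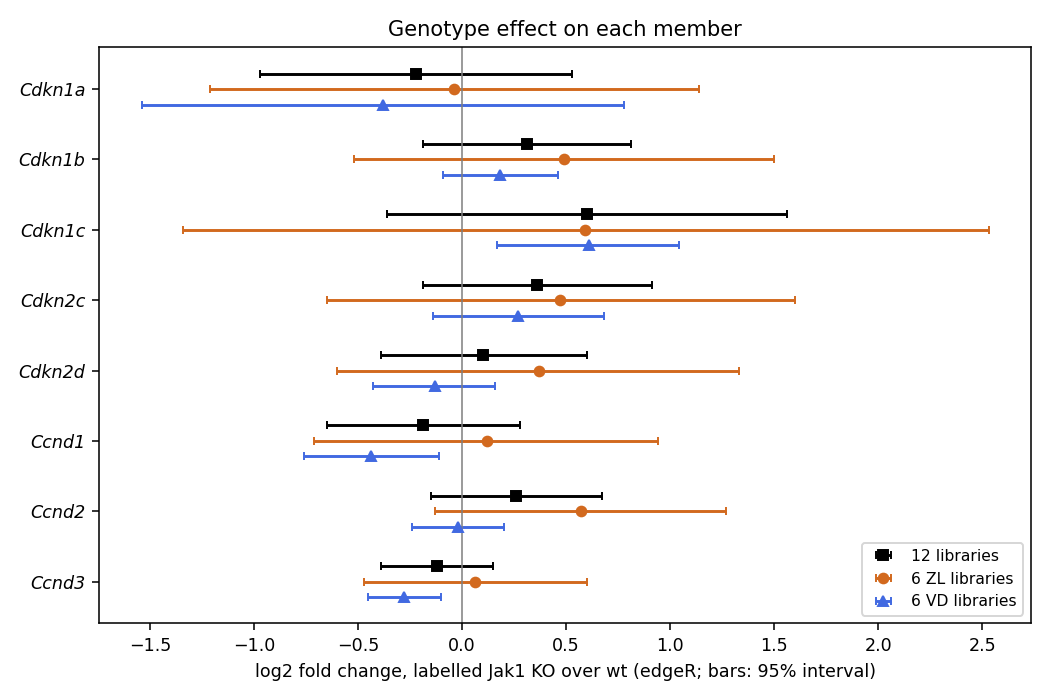
Points give the edgeR log2 fold change of each gene, Jak1 KO over wt, with its 95% interval, in all 12 libraries (squares), the 6 ZL libraries (circles) and the 6 VD libraries (triangles). Every interval from all 12 libraries and from the ZL libraries includes 0, and in VD libraries Cdkn1c (0.61), Ccnd1 (-0.44) and Ccnd3 (-0.28) have intervals clear of 0 before adjustment.

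Fitted alone, the VD libraries gave calls for 149 of 12903 genes (1.15%), and 0 of the 8 were among them. Cdkn1c, Ccnd1 and Ccnd3 reached an unadjusted p under 0.05 there (edgeR p-values 0.0100, 0.0118 and 0.00371), where 13.6% of all genes did. The ZL libraries gave 0 calls in 13859 genes with edgeR, with 226 genes (1.63%) at an unadjusted p under 0.05 and 45 calls with DESeq2; 0 of the 8 were among any of these. Whether the genotype effect differed between the name sets was tested as an interaction. It was called for 0 of 13184 genes with edgeR, 1 with DESeq2, and 182 genes (1.38%) had an unadjusted p under 0.05. None of the 8 was among those. Ccnd2 had the largest difference among them (ZL minus VD 0.63, SE 0.36, edgeR adjusted p = 0.975) over the 12 libraries. It was 0.29 to 0.85 with each library left out in turn, and at the 0.29 (SE 0.26) found without Jak1 KO 4 it was smaller than that of Ccnd1 (0.48). No gene of the 8 had non-overlapping genotypes in both name sets in the same direction, against 0.425% of all genes for higher and 0.963% for lower.

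Taken as a share of D cyclin transcripts, Ccnd2 was separated by genotype within both name sets, an arrangement seen only after the values were computed and given with no test. Its share of the summed D cyclin level per kb was 60.3%, 56.8% and 57.8% in Jak1 KO libraries 1 to 3, against 53.9%, 52.0% and 52.6% in wt libraries 1 to 3. It was 77.4%, 71.6% and 68.7% in Jak1 KO libraries 4 to 6, against 64.5%, 66.8% and 67.5% in wt libraries 4 to 6. A share also moves with the other genes in the sum. In VD libraries the log2 fold change of Ccnd2 itself was -0.02, with -0.44 for Ccnd1 and -0.28 for Ccnd3. In ZL libraries these values were 0.57, 0.12 and 0.06. Without Jak1 KO 4, Jak1 KO 6 and wt 6, the ZL values left are 71.6% in Jak1 KO 5, 64.5% in wt 4 and 66.8% in wt 5. Values already apart stay apart in any subset, so leaving out libraries could not undo the arrangement. As background, 186 of 13182 genes (1.41%) had a ratio to the summed Ccnd1 and Ccnd3 level that was arranged in this way, and 0.531% had the opposite arrangement. The 3 D cyclins have unequal exon lengths (9.41 kb for Ccnd2, 8.78 kb for Ccnd3, 4.71 kb for Ccnd1), and the libraries differ in their trend on exon length as given above; the part of that trend in the shares was not tested.

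Genes around these regulators were not called in edgeR either. Of 30 genes of the G1 machinery, 0 passed the threshold in edgeR, with 10 fold changes above 0 and 20 below and a median log2 fold change of -0.17. The smallest p-values were those of E2f8, a repressor E2F (-0.65, SE 0.25, edgeR adjusted p = 0.830), and of Rb1, the retinoblastoma gene (-0.66, SE 0.31, edgeR adjusted p = 0.945). Cdk6, the kinase partner of D cyclins, was the exception in limma-voom with library weights, where it passed with a log2 fold change of -0.62 (adjusted p = 0.0464); in edgeR it had -0.40 (SE 0.25, adjusted p = 0.945). Of 22 upstream regulators 0 passed, with a median of -0.08, and the smallest p-values were those of Foxo3, an activator of Cdkn1b (0.44, SE 0.24, edgeR adjusted p = 0.945), and Zbtb17, the MYC partner Miz1 (-0.27, SE 0.15, edgeR adjusted p = 0.945).

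Of 24 transcripts typical of cycling cells 0 passed the threshold in edgeR. The log2 fold changes had a median of -0.26 and were below 0 for 21 of the 24. An unadjusted p under 0.05 in edgeR was found for 6 of them (25.0%), where 5.06% of all genes reached one. Within VD libraries all 24 were below 0 and 14 (58.3%) reached one, where 13.6% of all genes did. Within ZL libraries 17 were below 0 and 7 above, and 0 reached one, where 1.63% of all genes did. The 24 genes share the same libraries and are not independent. Plk1, a mitotic kinase, had 38.4 ± 10.1 CPM in Jak1 KO libraries and 49.0 ± 7.73 CPM in wt libraries (log2 fold change -0.38, SE 0.14, adjusted p = 0.818 in edgeR), and limma-voom called it (-0.48, adjusted p = 0.0289). Mcm5, a subunit of the replicative helicase, had 272 ± 46.7 CPM in Jak1 KO libraries and 349 ± 34.9 CPM in wt libraries (log2 fold change -0.36, SE 0.14, adjusted p = 0.835 in edgeR). The mean log2 CPM of the 24 genes was 6.65, 6.76, 6.46, 6.70, 6.96 and 6.98 in Jak1 KO libraries, against 6.96, 7.02, 6.86, 6.98, 7.05 and 7.19 in wt libraries.

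Of the cell type markers, edgeR called 1 and limma-voom 7 over the 12 libraries, where they called 58 (0.440%) and 220 of all 13184 genes. Itga2b, an integrin of megakaryocytes and of stem cells close to them, was lower in Jak1 KO libraries (268 CPM, against 548 CPM in wt libraries; log2 fold change -1.08, SE 0.20, adjusted p = 0.0247 in edgeR), and limma-voom called it as well (-0.97, adjusted p = 5.37e-05). All 6 megakaryocyte markers had log2 fold changes below 0 over the 12 libraries, but Gp9 (-0.08, SE 0.25) and Ppbp (-0.15, SE 0.46) lay near 0. Within VD libraries edgeR called 4 of the 6, where it called 1.15% of all genes. Within ZL libraries it called 0 of the 6, as of all genes, with 2 fold changes above 0 and 4 below. The summed level of the 6 was 454 to 783 CPM in Jak1 KO libraries, against 1019.5 to 1377 CPM in wt libraries. How often sums of other genes lie apart in this way was not computed. Limma-voom also called Pf4, a platelet chemokine (-1.70, adjusted p = 3.37e-05; edgeR -1.24, adjusted p = 0.422), and Vwf, the von Willebrand factor (-0.78, adjusted p = 0.00126; edgeR adjusted p = 0.304). Of the 10 LT-HSC markers edgeR called 0 over the 12 libraries, with -0.30 for Slamf1 (SE 0.13, adjusted p = 0.902) and 0.28 for Hlf (SE 0.16, adjusted p = 0.945). Hlf passed in limma-voom (0.37, SE 0.09, adjusted p = 0.0317). In the other lists 0 markers passed in edgeR (adjusted p 0.674 to 0.974 for those named). Log2 fold changes were 0.45 for Flt3 and 0.06 for Cd34 of multipotent progenitors, 0.68 for Mpo and 0.60 for Ltf of granulocytes, and 0.27 for Csf1r and 0.15 for Cd68 of monocytes. They were -0.49 for Epor and -1.78 for Alas2 of erythroid cells, 0.25 for Cd79b of B cells, and -0.33 for Nkg7 and 0.10 for Klrb1c of NK cells. Limma-voom called 3 of these, Mpo (2.72, adjusted p = 0.0384), Epor (-0.67, adjusted p = 0.0156) and Nkg7 (-0.89, adjusted p = 0.0458). The Alas2 value had an SE of 0.87. Alas2 averaged 6.29 ± 6.14 CPM in Jak1 KO libraries and 45.9 ± 102 CPM in wt libraries, of which the highest had 255 CPM. Summed granulocyte markers ran from 95.5 to 1422 CPM in Jak1 KO libraries and from 139.7 to 1430.1 CPM in wt libraries. Of their 7 tested genes, 6 were lower in ZL than in VD libraries past the threshold, as were 24.5% of all genes. The part of these markers in the values of the CDK inhibitors and D cyclins was not tested.

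The name set went with larger differences than the genotype did. Between ZL and VD libraries, with genotype in the model, 5 of the 8 genes passed the threshold, 3 of them higher and 2 lower in ZL libraries. This is close to the background, since 7905 of 13184 genes (60.0%) passed, 35.4% of all genes higher and 24.5% lower. The median log2 fold change was 0.59 for the 8 genes and 0.20 over all tested genes, and fold changes below are read against that shift.

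Cdkn1b (chr6:134920401-134925525, plus strand) differed most. It averaged 12.9 ± 5.81 CPM in ZL libraries and 59.7 ± 6.74 CPM in VD libraries (SD, n = 6 each), and the ranges, 6.72 to 23.7 CPM in ZL libraries and 49.4 to 69.4 CPM in VD libraries, do not overlap, as in 15.8% of genes for a lower level. Its level was 4.71-fold lower in ZL libraries (log2 fold change -2.24, SE 0.24, adjusted p = 4.49e-06 in edgeR), a size at the 94.6th percentile of all genes without regard to sign. It stayed between -2.72 and -2.11 under every alternative tried, the offset for exon length (-2.26) included. Cdkn1b made up 2.95% ± 1.24 of the inhibitor level per kb in ZL libraries and 21.6% ± 1.45 in VD libraries. Foxo3 was 12.7-fold lower in ZL libraries, at 5.20 CPM against 65.3 CPM in VD libraries (log2 fold change -3.67, SE 0.26, adjusted p = 7.83e-08 in edgeR). Of the other listed Foxo genes, Foxo4 was 50.6-fold lower (1.20 CPM against 60.0 CPM, edgeR adjusted p = 3.27e-09). Foxo1 did not pass (log2 fold change -0.66, edgeR adjusted p = 0.104). No relation between a Foxo gene and Cdkn1b was tested.

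Cdkn2d (chr9:21288459-21291421, minus strand) averaged 107 ± 48.6 CPM in ZL libraries and 41.8 ± 3.73 CPM in VD libraries, with no overlap, as in 22.6% of genes for a higher level. It was 2.55-fold higher in ZL libraries (log2 fold change 1.35, SE 0.24, adjusted p = 0.000248 in edgeR), 0.90 on the log2 scale without Jak1 KO 4 and 0.63 with the offset for exon length, past the threshold in both. Ccnd2 (chr6:127125162-127152188, minus strand) averaged 811 ± 296 CPM in ZL libraries and 407 ± 45.7 CPM in VD libraries, also with no overlap. It was 1.95-fold higher (log2 fold change 0.97, SE 0.19, adjusted p = 0.000716 in edgeR), 0.62 on the log2 scale without Jak1 KO 4 and 1.52 with the length offset.

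Ccnd3 averaged 241 ± 23.8 CPM in ZL libraries and 179 ± 22.7 CPM in VD libraries and did not overlap. Its 1.36-fold difference (log2 fold change 0.44, SE 0.13, adjusted p = 0.00856 in edgeR) was not called without Jak1 KO 4 (0.21, edgeR adjusted p = 0.0857), with DESeq2's size factors (0.31, edgeR adjusted p = 0.0755), with Rn45s left out (0.32, edgeR adjusted p = 0.0596) or in 2 other settings. Ccnd1 went the other way, with 41.0 ± 11.0 CPM in ZL libraries and 68.0 ± 16.3 CPM in VD libraries, which overlap, and was 1.64-fold lower in ZL libraries (log2 fold change -0.71, SE 0.22, adjusted p = 0.0111 in edgeR).

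The other 3 genes did not pass. Cdkn1c had a log2 fold change of 0.90 (SE 0.45, edgeR adjusted p = 0.0970) and passed without wt 6 (1.13, edgeR adjusted p = 0.00778), without Jak1 KO 6 (1.09, edgeR adjusted p = 0.0357) and without the 3 libraries with the strongest length trends (1.10, edgeR adjusted p = 0.000588). Cdkn1a had 0.74 (SE 0.35, edgeR adjusted p = 0.0826) and Cdkn2c 0.03 (SE 0.26, edgeR adjusted p = 0.917). Across genes, the ZL over VD fold change fell with exon length (Spearman correlation -0.36 over 13072 genes, which share the same libraries and are not independent), and Rn45s separates the name sets as given above. The part of either in these differences was not tested, beyond the values with the length offset and without Rn45s.

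**Figure D3:**
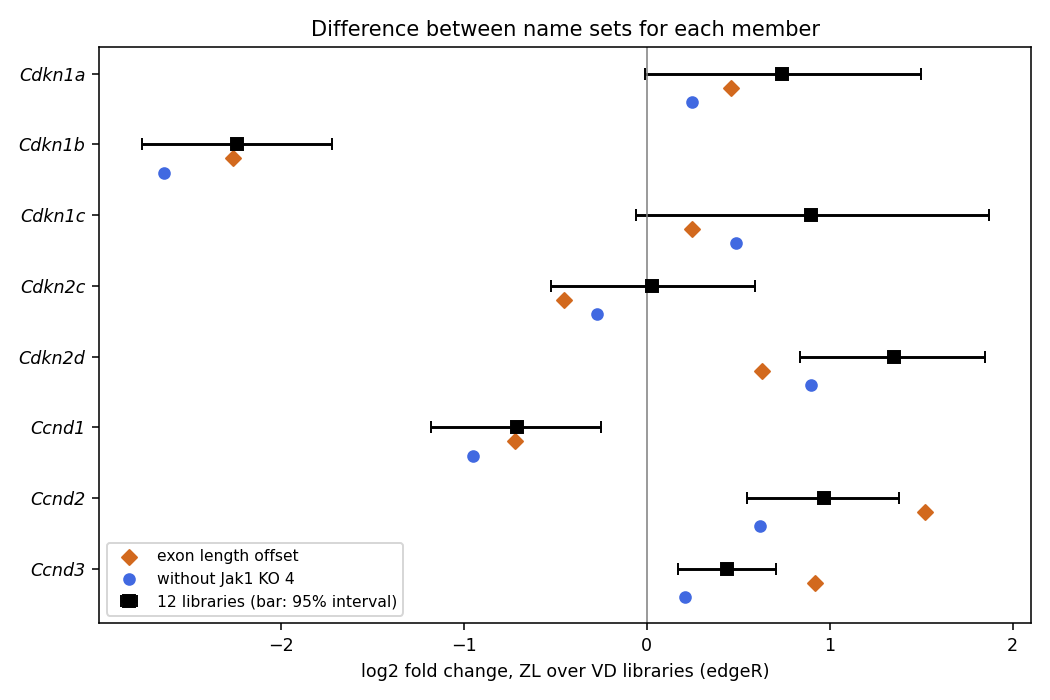
Squares give the edgeR log2 fold change of each gene, ZL over VD, with its 95% interval, diamonds the value after an offset that takes out the trend of each library on exon length, and circles the value without Jak1 KO 4. Cdkn1b lies at -2.24 and at -2.26 and -2.64 in the alternatives, while Cdkn2c lies at 0.03 and turns negative in both.

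**Figure D4:**
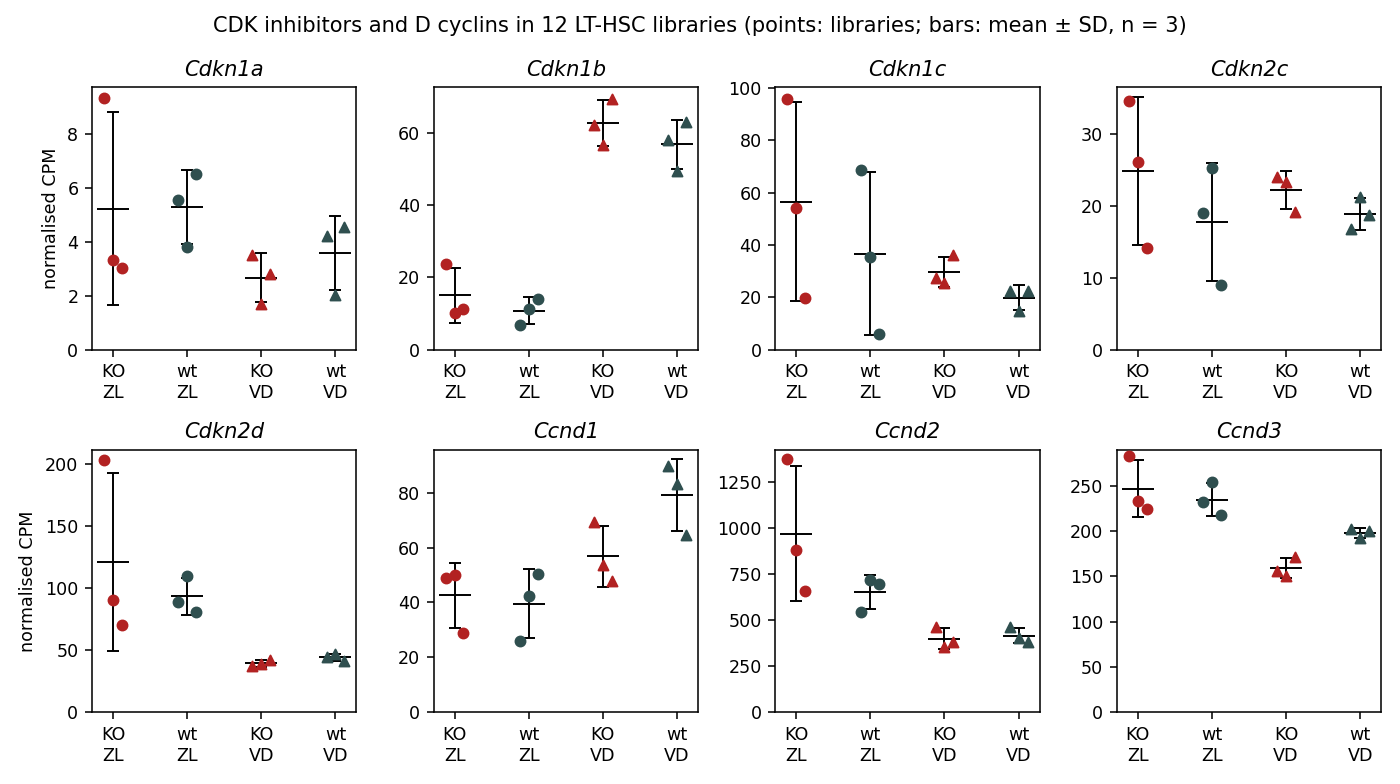
Each panel gives the normalised CPM of a gene, from 0, in the 4 groups of 3 libraries, with Jak1 KO (red) left of wt (dark) and ZL (circles) left of VD (triangles); bars are mean ± SD. Cdkn1b separates ZL from VD libraries, Cdkn2d, Ccnd2 and Ccnd3 are higher in ZL libraries, and Jak1 KO 4 is the highest point for 6 of the 8 tested genes: Cdkn1a (9.36), Cdkn1c (95.8), Cdkn2c (34.6), Cdkn2d (203), Ccnd2 (1373) and Ccnd3 (283).

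For the 4 genes with the highest mean CPM, the most similar profiles over the 12 libraries, after centring within each name set, were looked up among 9934 genes with at least 10 CPM. Closest to Ccnd2 were Sdhaf2, Aptx and Sod2 (Pearson r = 0.96 each, n = 12). Closest to Cdkn2d were Clic1, Zfp524 and Srgn (0.97 each), closest to Ccnd3 were Usb1 (0.95), Dedd (0.94) and Vmp1 (0.92), and closest to Ccnd1 were Idh3a (0.90), Polr1e (0.88) and Slc7a1 (0.87). All these values share libraries that differ in depth and length trend, and they are descriptions with no test.

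Some counts may hold reads of neighbours. On the opposite strand, Ccnd3 shares 361 exon bases with Bysl, Ccnd2 shares 368 with 9330179D12Rik, Ccnd1 shares 1100 with LTO1, Cdkn1c shares 625 with Gm44732 and Cdkn1a shares 273 with AC167363.2. Since the labels state no strand setting for the counting, such reads cannot be told apart.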

How the data were processed

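Poly-A RNA of 12 LT-HSC libraries was sequenced, extracted with TRIzol per the labels' protocols. The values the authors deposited are raw, whole-number counts of reads for each gene. Reads were aligned and counted with STAR 2.3.0e, Subread and featureCounts on mm10, per the submitters' processing notes; no annotation or strand setting is stated there. Genotype came from the titles and name set from the descriptions.

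In R 4.3.3, edgeR 4.0.16 was run with filterByExpr on genotype, TMM factors, terms for name set and genotype, and the quasi-likelihood F test, with Benjamini-Hochberg adjustment over all genes tested and a threshold of 0.05. SE was taken as log2 fold change over the root of F, and values after ± are SDs. The interaction and each name set alone were fitted likewise. Levels per kb used GENCODE exon lengths, and promoters came from RefSeq (both GRCm38.p6). Alternatives were DESeq2 1.42.0, limma-voom with sample weights (limma 3.58.1), other scalings and filters, no name set term, Rn45s left out, an exon length offset, a replicate block and left-out libraries. All 10 members were named, and of other lists the called genes or the 2 with the smallest p, with the 3 closest profiles of the 4 highest members. A gene that this rule takes is not reported here. Cdk6, Pf4, Vwf and the ZL over VD values of Foxo1, Foxo3 and Foxo4 were named after their values were seen. Members and lists were chosen with earlier results of these data known.

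Depth was 8989965 to 28701855 counts per library; intervals and floors cover counting error only. Replicates were checked for near-identity (lowest chi-square per degree of freedom 13.8). The fits were tested on simulated data.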

Additional observations from a re-analysis of the deposited data

Results flagged for a closer look

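In 5 cases, 1 library stood far from the other 5 of its genotype by Dixon's test; 22 such tests were run, and chance marks about 5% of groups. Cdkn1a was 9.36 CPM in Jak1 KO 4, where the next highest Jak1 KO library had 3.52 CPM. Cdkn2d was 203 CPM in Jak1 KO 4, with 90.1 CPM in the next. Cdkn2a was 0.226 CPM in Jak1 KO 4 (next 0.0398 CPM) and 0.194 CPM in wt 4 (next 0.0333 CPM), on 3 and 5 counts. Jak1 was 727 CPM in Jak1 KO 6, with 408 CPM in the next. Jak1 KO 4 had the strongest trend on exon length of the 12 libraries (Spearman correlation -0.52) and the lowest limma-voom weight (0.165), and Jak1 KO 6 a trend of 0.45 and a weight of 0.359; their part in these values was not tested.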

How the results depend on the processing

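For genotype, 0 of the 8 genes passed under every alternative run. Limma-voom called 1 gene of the G1 machinery and 1 of the cycling list, where edgeR called 0 of each, and 7 cell type markers, where edgeR called 1; the log2 fold change of Mpo was 2.72 in limma-voom and 0.68 in edgeR. Over all genes, the genotype count of 58 became 126 with DESeq2, 220 with limma-voom, 14 with no term for name set and 96 without the 3 ZL libraries; the VD count of 149 became 403 with DESeq2, 382 with no filter and 62 (without wt 1), 73 (without Jak1 KO 1) or 305 (without Jak1 KO 2), and the ZL count of 0 became 45 with DESeq2 and 5 with no filter. Whether replicate numbers pair the libraries was not settled. Deviations of same-numbered libraries correlated at 0.04, 0.19, 0.11, 0.20, 0.06 and 0.67. Numbers 2, 3 and 6 had the same number as best partner, and 3 numbers (1, 4 and 5) had another. With a replicate block 72 genes and 0 of the 8 passed, and Cdkn1c had 0.75 (edgeR adjusted p = 0.193). Signs that turned follow, as log2 fold changes whose main values were all short of the threshold; the cause was not tested. For genotype, Cdkn2d was -0.19 with limma-voom, -0.07 with the length offset, -0.13 in VD, -0.12 without the 3 ZL libraries and -0.16 to 0.20 with 1 library left out; Ccnd1 was 0.12 in ZL; Ccnd2 -0.02 in VD; Ccnd3 0.00 with the length offset and 0.06 in ZL; and Jak1 -0.05 to 0.35 with 1 library left out. For the interaction, Cdkn1a was -0.13 with limma-voom, -0.07 without the 3 ZL libraries and -0.32 to 0.66 with 1 left out. Cdkn1b was -0.08 with limma-voom and -0.15 to 0.58 with 1 left out. Cdkn1c was -0.03 with upper quartile factors, -0.35 with the length offset, -0.50 without the 3 ZL libraries and -0.56 to 0.88 with 1 left out. Leaving 1 out gave -0.07 to 0.60 for Cdkn2c and -0.05 to 0.82 for Cdkn2d. Between name sets, Cdkn2c was -0.09 with DESeq2's size factors and with DESeq2, -0.07 with upper quartile factors and without Rn45s, -0.00 with no filter, -0.45 with the length offset and -0.27 to 0.19 with 1 left out. These settings also moved the median of all genes, by -0.14 with DESeq2's size factors, -0.11 with upper quartile factors, 0.35 with no filter, -0.13 without Rn45s and -0.15 without Jak1 KO 4. With 1 left out in VD, Ccnd2 was -0.14 to 0.06. With 1 left out in ZL, Cdkn1a was -0.73 to 0.24, Cdkn1c -0.04 to 1.46, Cdkn2d -0.21 to 0.64, Ccnd1 -0.10 to 0.33 and Ccnd3 -0.03 to 0.13; Ccnd3 was -0.01 with no filter. For the name sets, Ccnd3 also lost its call with no filter (0.39, edgeR adjusted p = 0.0567) and with DESeq2 (0.31, adjusted p = 0.0622), and Cdkn1c gained one with limma-voom (0.69, adjusted p = 0.0267). Depth limits Cdkn2a and Cdkn2b.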
